A study of Mus musculus with 6 samples.

Results

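The Bcl2 family was read in the cerebral cortex of senescence-accelerated mice as the group means of every probe set whose gene symbol was Bcl2, Bcl2l1, Bcl2l11, Mcl1, Bax, Bak1, Bad, Bid or Bbc3. These 9 genes were covered by 29 of the 45077 probe sets on the array, and none of the 29 carried a further symbol. The cortices came from 3 groups of 2 biological samples, from male mice labelled 16 weeks of age and housed individually. Whether this is the age at purchase, at the first dose or at dissection is not given in the sources used here, and acclimatization, dosing and tests all came before the cortex was taken. The SAMR1 + Water group held the senescence-resistant strain given Mill-Q water, and the SAMP8 + Water group held the senescence-prone strain given the same volume of water. The SAMP8 + STEE group held SAMP8 mice given a sugarcane top ethanolic extract (STEE) by mouth at 20 mg/kg. Administration ran for 30 days and went on through a further 8 days of behavioral tests, and BrdU, a thymidine analogue that marks dividing cells, was given in the drinking water to the mice of the study. SAMP8 and SAMR1 are separate inbred lines and differ at many loci, so a difference between them belongs to the strain as a whole.

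Proteins of the Bcl2 family decide whether the outer mitochondrial membrane is opened. Bcl2, Bcl2l1 (Bcl-xL) and Mcl1 guard the membrane, the effectors Bax and Bak1 form pores in it, and the BH3-only proteins Bcl2l11 (Bim), Bid, Bad and Bbc3 (Puma) bind and block the guards or activate the effectors. Cytochrome c released through the pores drives the assembly of the apoptosome. In the adult brain Bcl-xL and Mcl1 keep neurons alive, and Bax and Bim carry much of the neuronal death programme.

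The values were the authors' mean log2 signals, 1 for each group, with no value of a single mouse. The p-values that the authors deposited with them were not used here, no spread between mice could be computed from the means, and every difference below is a description without a test. A difference of 2 such means carries a rounding error of up to 0.01. A probe set was counted as apart where its group means lay at least 1.2-fold from each other, which at 2 decimals is a log2 difference of 0.27 or more. The SAMP8 + Water means entered both the comparison with SAMR1 and the comparison with STEE, so a value that was high or low in that group moves both differences in opposite directions. Levels are compared within a probe set and never between probe sets, since each set of probes has its own brightness. In whole cortex, fewer cells of a type and less RNA per cell cannot be told apart.

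All 6 probe sets of Mcl1, a short-lived guard protein, were lower in SAMP8 + STEE than in SAMP8 + Water, while all 4 probe sets of Bcl2l1 were higher. The promoters of these guards, whose probe sets lay on opposite sides, are printed here from RefSeq (GRCm38.p6), from 250 bases before the start site to 30 bases after it. Mcl1 has 1 start site in the table and Bcl2l1 has 3, of which the most upstream one is shown. Capitals mark a GC box (GGGCGG on either strand) and a core of the cyclic AMP response element (TGACG on either strand).
Mcl1 promoter, chr3:95658471-95658750, plus strand: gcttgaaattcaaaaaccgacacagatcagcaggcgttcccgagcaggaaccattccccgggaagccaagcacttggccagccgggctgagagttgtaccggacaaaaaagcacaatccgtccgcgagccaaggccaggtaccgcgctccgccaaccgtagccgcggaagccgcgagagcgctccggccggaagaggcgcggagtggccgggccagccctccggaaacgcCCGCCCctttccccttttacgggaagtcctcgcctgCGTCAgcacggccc
Bcl2l1 promoter, chr2:152831699-152831978, minus strand: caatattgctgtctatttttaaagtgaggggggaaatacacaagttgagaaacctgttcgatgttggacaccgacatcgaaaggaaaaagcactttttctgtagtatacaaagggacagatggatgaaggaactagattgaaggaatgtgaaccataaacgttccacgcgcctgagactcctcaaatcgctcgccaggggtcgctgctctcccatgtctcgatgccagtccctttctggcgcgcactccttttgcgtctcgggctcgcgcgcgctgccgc
The Mcl1 promoter held 1 GC box starting at base -20 from the start site and 1 core motif starting at base 17 after it, here as their reverse complements. None of these motifs was in the Bcl2l1 promoter shown. Over the 300 bases of each table entry, the core motif was found in 20.8% of 32851 mouse promoters and in 3 of the 15 entries of the members, those of Mcl1, Bcl2 and Bbc3. The GC box was found in 35.7% of all promoters and in 10 of the 15. The entries with it ran from 57.3% to 78.0% G and C, where the median over all promoters was 52.7%. Some genes have several entries, and 2 of those of Bbc3 overlap, so the 15 are not separate promoters. The whole element TGACGTCA, which contains the core motif, was in 1.79% of all promoters and in none of the 15, and CCAAT was in 37.4% of all and in 4 of the 15. A match describes the letters of the window and is no evidence of a bound factor.

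**Figure D1:**
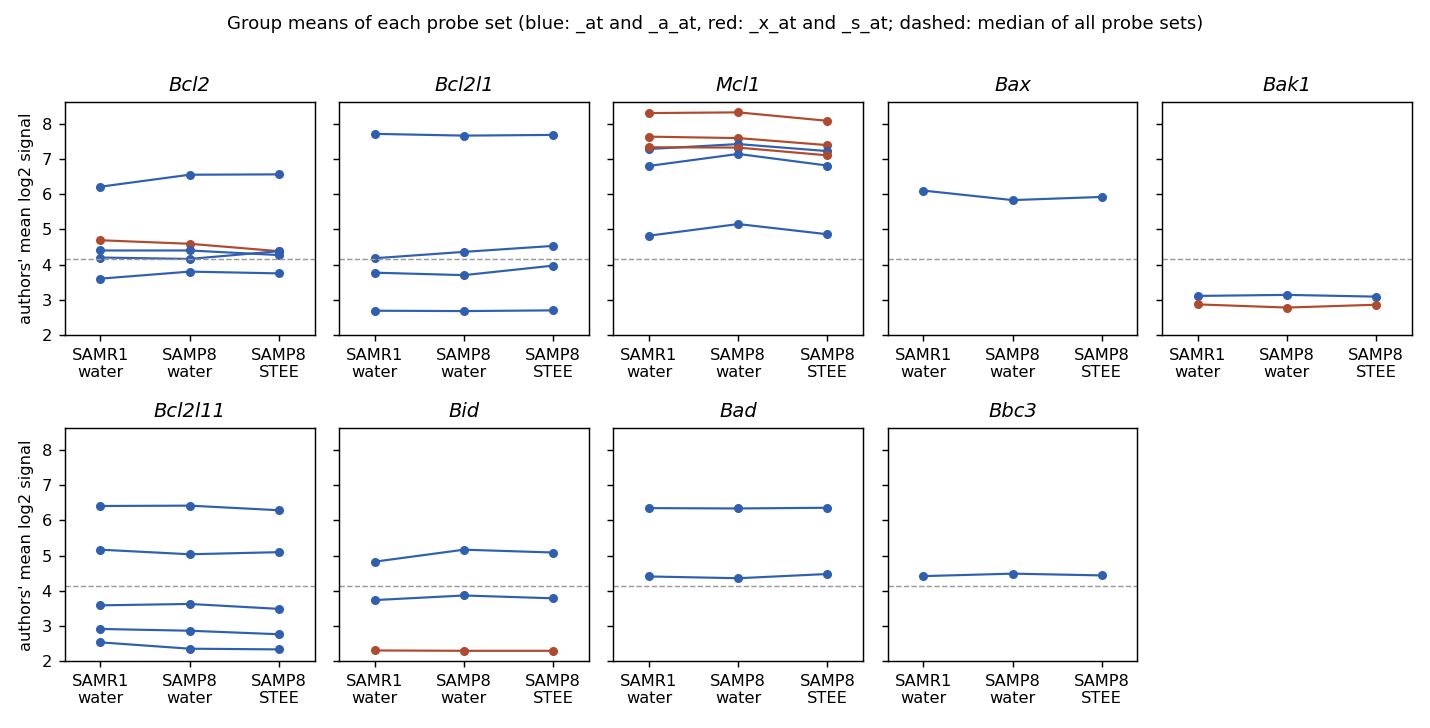
Authors' mean log2 signal (vertical axis) of each probe set in SAMR1 + Water, SAMP8 + Water and SAMP8 + STEE (horizontal axis), 1 panel per gene and 1 line per probe set, with no error bars because the tables hold group means only. Probe sets of 1 gene sit at different brightness, the dashed line is the median signal of 4.15 over all probe sets, and both Bak1 probe sets lie under it.

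The comparison of SAMP8 + STEE with SAMP8 + Water asked what the extract did in the senescence-prone strain. Mcl1 held the lowest differences of all members. Its probe set 1448503_PM_at had means of 6.80 in SAMR1 + Water, 7.14 in SAMP8 + Water and 6.81 in SAMP8 + STEE, so that the STEE mean was lower by 0.33 and lay beside that of SAMR1. The dimmer 1416881_PM_at had means of 4.82, 5.15 and 4.86 in the same order, a difference of -0.29 with STEE. The third probe set of the plain _at class, 1416880_PM_at, had means of 7.28, 7.42 and 7.22 and differed by -0.20. All 3 of these had their highest mean in SAMP8 + Water.

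The other 3 Mcl1 probe sets belong to the _x_at class, in which some probes can also match other transcripts. Probe set 1437527_PM_x_at had means of 8.30, 8.32 and 8.08, 1456243_PM_x_at had 7.63, 7.59 and 7.39, and 1456381_PM_x_at had 7.33, 7.32 and 7.10. In these the SAMR1 and SAMP8 + Water means differed by at most 0.04, and STEE was lower than both, by 0.20 to 0.24. Both classes therefore placed Mcl1 lower with STEE than in SAMP8 + Water, with a mean difference of -0.27 over the _at sets and -0.22 over the _x_at sets. They did not place the SAMR1 level alike, since the mean difference of SAMP8 + Water from SAMR1 was 0.27 over the _at sets and -0.01 over the _x_at sets.

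**Figure D2:**
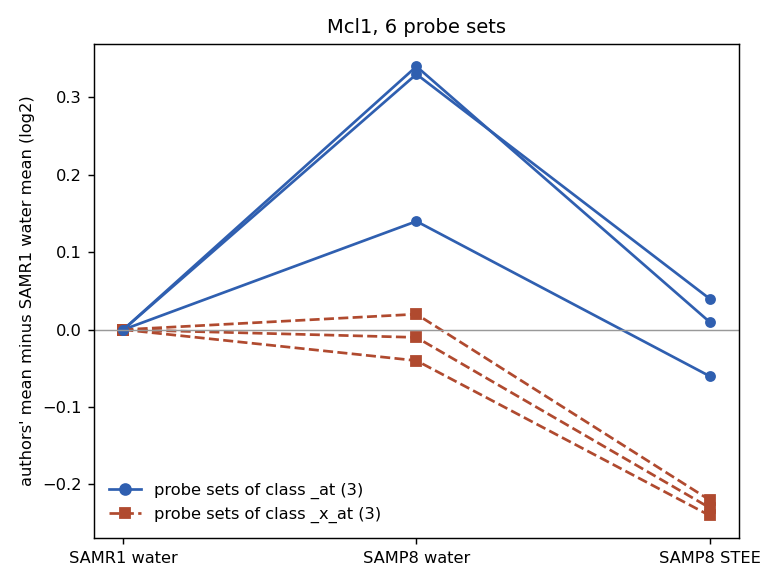
Authors' mean of each of the 6 Mcl1 probe sets minus its SAMR1 + Water mean (vertical axis, log2) in the 3 groups (horizontal axis), without error bars because no value per mouse was given. The 3 probe sets of class _at (blue circles) stand 0.14 to 0.34 up in SAMP8 + Water and end between -0.06 and 0.04 in SAMP8 + STEE, whereas the 3 of class _x_at (red squares) stay within 0.04 of SAMR1 in SAMP8 + Water and end between -0.24 and -0.22.

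Of the 376 genes with at least 6 probe sets of their own, 12, or 3.19%, had every probe set lower with STEE, Mcl1 among them. Mcl1 was the only 1 of the 376, or 0.266%, in which every probe set was lower by at least 0.20. The bar of 0.20 is Mcl1's own smallest difference, so Mcl1 passes it by construction and the 0.266% does not measure how rare the pattern is. This count was set up after the Mcl1 values had been seen, and the probe sets of a gene read the same RNA and are not replicates. The pattern of 1448503_PM_at was most closely matched by single probe sets of Dusp11, Coq10b and Ccnd2, at distances of 0.014, 0.020 and 0.022 in the log2 differences of SAMP8 + Water from SAMR1 and of STEE from SAMP8 + Water. A further count over the whole array gave 30 other probe sets within 0.05 of it in both differences. The Mcl1 set 1416881_PM_at was among them, and the likeness rests on 3 group means.

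Bcl2l1 differed in the other direction. The probe set 1426191_PM_a_at had means of 3.77 in SAMR1 + Water, 3.70 in SAMP8 + Water and 3.97 in SAMP8 + STEE, and its difference of 0.27 with STEE was the only one upward among the members at 1.2-fold. That difference lay just past the 1.2-fold line, within the rounding error of it. The signal of this probe set was under the median of all probe sets. The probe set 1420887_PM_a_at had means of 4.18, 4.36 and 4.53, a difference of 0.17. The brightest, 1420888_PM_at, had 7.71, 7.66 and 7.68, and the dimmest, 1426050_PM_at, had 2.69, 2.68 and 2.70, each higher with STEE by only 0.02. All 4 were thus on the higher side, which held for 8.10% of the 1951 genes with at least 4 probe sets, and the brightest barely differed.

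The 5 probe sets of Bcl2, the founding guard of the family, were divided. With STEE, 1422938_PM_at was higher, with means of 4.20, 4.16 and 4.38 and a difference of 0.22. The probe set 1443837_PM_x_at was lower, with means of 4.69, 4.59 and 4.38 and a difference of -0.21. The brightest, 1457687_PM_at, had 6.56 with STEE against 6.55 in SAMP8 + Water, and the other 2 differed by -0.13 and -0.05. The mean over the 5 was -0.03, and no direction for the gene can be read from it.

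The effectors differed little with STEE. Bax, with 1 probe set, had means of 5.83 in SAMP8 + Water and 5.92 in SAMP8 + STEE, a difference of 0.09. The 2 probe sets of Bak1 differed by -0.05 and 0.08. None of the 11 BH3-only probe sets was 1.2-fold apart with STEE. For Bcl2l11 the 5 differences ran from -0.14 to 0.06, for Bid the 3 ran from -0.08 to 0.00, Bad had 0.02 and 0.12, and Bbc3 had -0.05.

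Counted together, 1 of the 29 members was at least 1.2-fold higher with STEE, where 1.03% of all 45077 probe sets were, and 2 of 29 were at least 1.2-fold lower, where 0.976% of all were. Both lower ones were Mcl1 and the higher one was Bcl2l1, so the 3 stand for 2 genes. The median of the absolute differences was 0.10 over the members and 0.06 over all probe sets. By role it was 0.20 over the 15 guard probe sets and 0.08 over the 3 effector and the 11 BH3-only probe sets. The guard value leans on Mcl1, whose 6 probe sets read the same RNA and differed by -0.33 to -0.20. Those of Bcl2 ran from -0.21 to 0.22 and those of Bcl2l1 from 0.02 to 0.27. The 26 members that were not 1.2-fold apart differed by -0.24 to 0.22.

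**Figure D3:**
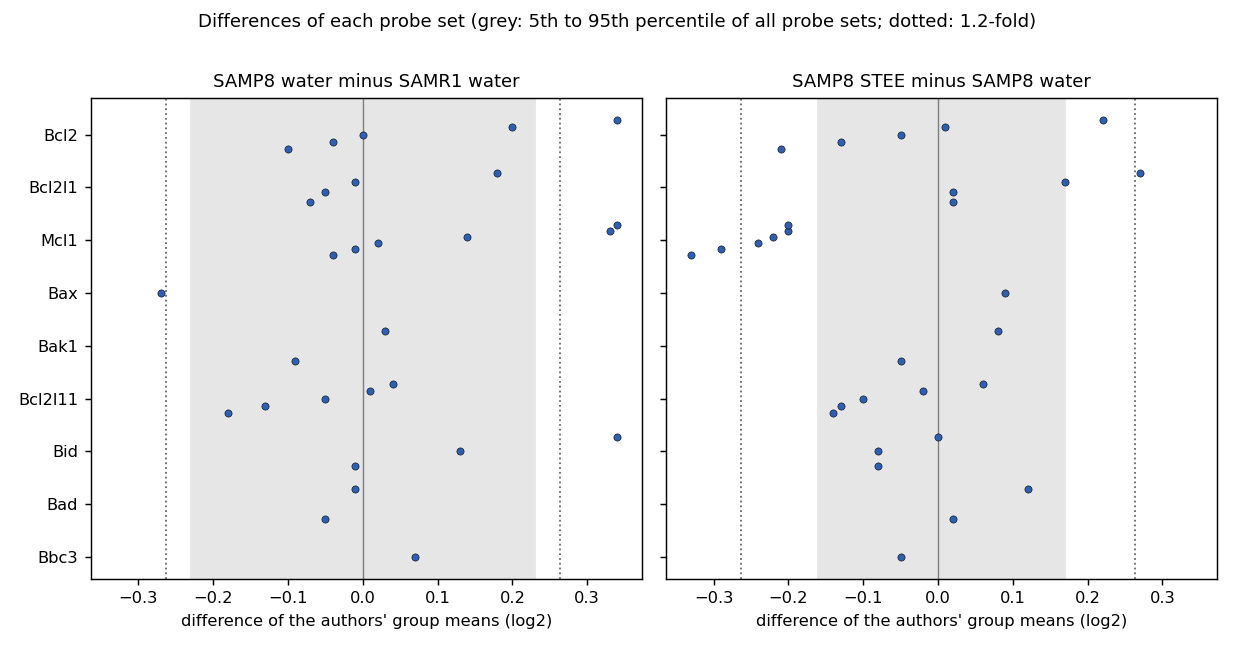
Difference of the authors' group means (horizontal axis, log2) for each probe set of the 9 members (vertical axis), SAMP8 + Water minus SAMR1 + Water at left and SAMP8 + STEE minus SAMP8 + Water at right. Grey bands span the 5th to 95th percentile of all probe sets, -0.23 to 0.23 at left and -0.16 to 0.17 at right, dotted lines mark 1.2-fold, and all 6 Mcl1 points at right lie below the grey band.

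The comparison of SAMP8 + Water with SAMR1 + Water set the senescence-prone strain against its resistant control. Here 4 of the 29 members were at least 1.2-fold higher in SAMP8, where 3.68% of all probe sets were, and 1 of 29 was at least 1.2-fold lower, where 3.43% of all were. The 4 higher ones were 1 probe set of Bcl2, 1 of Bid and 2 of Mcl1, and the lower one was the probe set of Bax. The median over all members was -0.01, with 13 probe sets on the higher side, 15 on the lower and 1 equal, so the members lay on both sides.

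The Bcl2 probe set 1457687_PM_at had means of 6.21 in SAMR1 + Water, 6.55 in SAMP8 + Water and 6.56 in SAMP8 + STEE. Both SAMP8 groups were thus higher than SAMR1, by 0.34 and 0.35, and lay together. The dim 1437122_PM_at had 3.60, 3.80 and 3.75 and was higher in SAMP8 by 0.20, but the remaining 3 Bcl2 probe sets had differences of -0.10, -0.04 and 0.00. The Bid probe set with the brightest signal had means of 4.83, 5.17 and 5.09. Bid is cut by caspase-8 and links death receptors to mitochondria. Its second probe set had 3.74, 3.87 and 3.79, higher in SAMP8 by 0.13, and the third, an _x_at set with the lowest signal, had 2.31, 2.30 and 2.30.

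The Bax means were 6.10 in SAMR1 + Water, 5.83 in SAMP8 + Water and 5.92 in SAMP8 + STEE. The difference of -0.27 between the strains lay just past the 1.2-fold line, within the rounding error of it, and 7.11% of all probe sets were at least that far apart in either direction. Centring each group on its median over all probe sets put Bax inside the line. Of the Bak1 probe sets, 1 had means of 3.11, 3.14 and 3.09 and the other 2.87, 2.78 and 2.86, all under the median signal of 4.15.

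The balance of Bax against each guard can be followed as the change of a log2 ratio between groups. From SAMR1 to SAMP8 + Water the ratio was lower by every guard probe set, by -0.61 to -0.17 over the 5 of Bcl2, -0.45 to -0.20 over the 4 of Bcl2l1 and -0.61 to -0.23 over the 6 of Mcl1. The direction was set by Bax, whose 1 probe set was further down than any guard probe set and entered every ratio. From SAMP8 + Water to SAMP8 + STEE the ratio of Bax to Mcl1 was higher by all 6 probe sets, by 0.29 to 0.42. The ratio of Bax to Bcl2 ran from -0.13 to 0.30 and that of Bax to Bcl2l1 from -0.18 to 0.07, so the sign of the widely used Bax to Bcl2 ratio depended on the Bcl2 probe set chosen.

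Among the other BH3-only genes, Bcl2l11 had its brightest probe set at 6.41 in SAMR1 + Water, 6.42 in SAMP8 + Water and 6.29 in SAMP8 + STEE. The second had 5.17, 5.04 and 5.10, the third 3.59, 3.63 and 3.49, the fourth 2.92, 2.87 and 2.77, and the fifth 2.54, 2.36 and 2.34. All 5 were lower in SAMP8 + STEE than in SAMR1, by 0.07 to 0.20, as were all probe sets of 8.03% of the 847 genes with at least 5. Bad, which is held inactive by survival kinases, had 6.35, 6.34 and 6.36 by its brighter probe set and 4.41, 4.36 and 4.48 by the other. Bbc3, a target of the p53 protein, had 4.42, 4.49 and 4.44. By the furthest probe set of each gene, Bad and Bbc3 showed the smallest differences between the strains, at most 0.07, and Bbc3 has only 1 probe set. By the mean over probe sets, Bcl2l1 at 0.01, Bak1 at -0.03 and Bcl2l11 at -0.06 differed less than Bbc3.

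SAMP8 + STEE was also set against SAMR1 + Water. In this comparison 2 of the 29 members were at least 1.2-fold higher, 1 probe set of Bcl2 and 1 of Bcl2l1, both by 0.35, where 4.60% of all probe sets were. Only 1 of 29 was at least 1.2-fold lower, the Bcl2 set 1443837_PM_x_at by 0.31, where 3.25% of all were. Neither share lies far from that of the whole array, and the 2 Bcl2 probe sets were on opposite sides. The 3 Mcl1 sets of class _at lay between -0.06 and 0.04 of SAMR1, and Bax remained below it by 0.18.

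The other genes of the pathway were read through 6 lists of 54 genes and 132 probe sets. With STEE against SAMP8 + Water, 0 of the 132 were 1.2-fold higher and 0 were 1.2-fold lower, where 1.03% and 0.976% of all probe sets were. Between SAMP8 + Water and SAMR1, 3 were higher and 4 lower, or 2.27% and 3.03%, where 3.68% and 3.43% of all probe sets were. Pmaip1, which encodes the BH3-only protein Noxa that binds Mcl1, had means of 3.56 in SAMR1 + Water, 4.13 in SAMP8 + Water and 4.30 in SAMP8 + STEE, and so was higher in SAMP8 by 0.57. Bcl2l13, a mitophagy receptor, had 5.10, 5.61 and 5.57 by 1 probe set, whereas its other set differed by -0.03. Mdm2, the ligase that degrades p53, had 5.10, 5.59 and 5.37 by its most different probe set, and its other 2 differed by 0.16 and 0.01.

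Of the 5 probe sets of Mapk8, the stress kinase JNK1, 1 was 1.2-fold lower in SAMP8, with means of 6.86, 6.53 and 6.76, but the other 4 differed by 0.23, 0.05, 0.01 and -0.03, and the mean over the 5 was -0.01. All 6 probe sets of Birc6, a large inhibitor of apoptosis, were lower in SAMP8, by -0.30 to -0.03 with a mean of -0.13. The same held for all probe sets of 5.05% of the 376 genes with at least 6. Of the 2 Birc6 sets at 1.2-fold, the brighter had means of 8.07, 7.80 and 7.84, and the dimmer differed by -0.30. A probe set shared by the near-identical Bcl2a1a, Bcl2a1b and Bcl2a1d, guards of blood cells, had 3.04, 2.74 and 2.74, which was under the median signal and cannot be assigned to 1 of them. The 12 probe sets of the channel and binding partners, among them Vdac1, Vdac3, Bag3 and Bcap31, differed by -0.12 to 0.17 between the strains and by -0.06 to 0.13 with STEE. Between SAMP8 + STEE and SAMR1, 4 of the 132 were higher, or 3.03%, those of Pmaip1 by 0.74, Bcl2l13 by 0.47, Foxo1 by 0.33 and Mdm2 by 0.27, where 4.60% of all probe sets were. Another 3, or 2.27%, were lower, those of the Bcl2a1 genes by 0.30, Xiap by 0.29 and Jun by 0.27, where 3.25% of all were. Foxo1, Xiap and Jun were named after their values had been seen, each by 1 of several probe sets, and the means over all their sets were 0.16, -0.08 and -0.14.

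**Figure D4:**
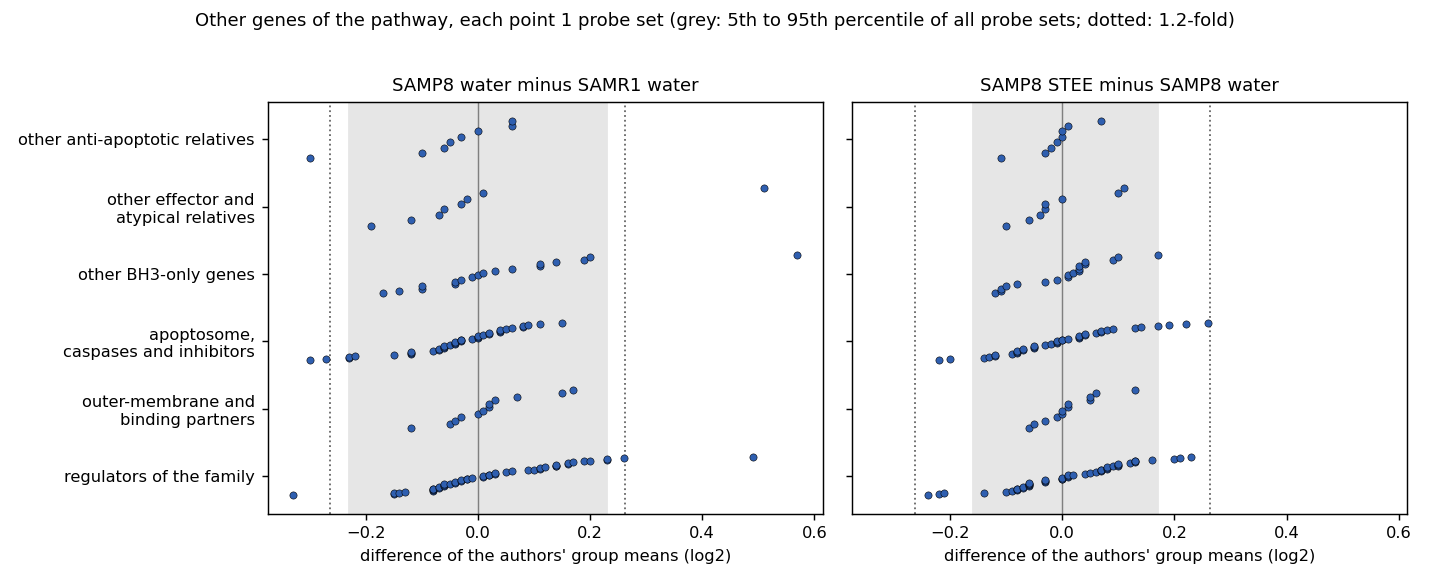
Difference of the authors' group means (horizontal axis, log2) for the probe sets of 6 lists of other pathway genes (vertical axis), SAMP8 + Water minus SAMR1 + Water at left and SAMP8 + STEE minus SAMP8 + Water at right, 1 point per probe set. Grey bands span the 5th to 95th percentile of all probe sets, dotted lines mark 1.2-fold, and no point at right lies past 1.2-fold, whereas Pmaip1 at 0.57 and Bcl2l13 at 0.51 lie furthest to the right at left.

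Marker genes checked the tissue, each read by its brightest probe set unless stated. All 5 neuronal markers, including the cortical transporter gene Slc17a7, were above the median signal in this cortex. Between SAMP8 + Water and SAMR1, all 4 striatal markers were higher in SAMP8, by 0.32 to 0.87. Their list medians were 7.38 in SAMR1 + Water, 7.98 in SAMP8 + Water and 8.05 in SAMP8 + STEE. Of their dimmer probe sets, 1 of Rgs9 differed by -0.07 and that of Adora2a by 0.08. All 5 oligodendrocyte markers were lower, with differences of -0.63 to -0.07 and list medians of 10.54, 10.15 and 10.15. Of the 4 choroid plexus markers, Ttr had means of 10.20, 8.24 and 9.33, and the other 3 were under the median signal. The neuronal markers were higher in SAMP8 by 0.04 to 0.24, with list medians of 10.67, 10.91 and 10.79. Dimmer probe sets of the neuronal genes went both ways, from -0.40 for Syt1 to 0.65 for Gad1. The list medians of astrocytes, microglia, endothelium and blood differed by at most 0.10 between the strains, and all 3 dentate gyrus markers were under the median signal. The strain differences of Mcl1, Bcl2, Bid and Bax stand beside these, and the part of tissue composition in them was not tested. With STEE against SAMP8 + Water the list medians differed by at most 0.12, and Ttr was higher by 1.09 while Mcl1 was lower. The part of Ttr-bearing tissue in the Mcl1 difference was not tested.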

How the data were processed

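Cortical RNA of 6 samples was read on Affymetrix perfect-match strips for mouse. The methods name 2 biological samples for each group and do not say whether each was a single animal. Per the labels and the methods, the authors summarised and normalised the probe intensities with the RMA algorithm of the Expression Console, and used the Transcriptome Analysis Console for their contrasts. The 2 deposited tables hold, for 45077 probe sets, the authors' group means of the log2 signal, written with 2 decimals, with no depth, no array and no build given. They also hold the authors' own fold changes, p-values and adjusted p-values, which were not used here. The SAMP8 + Water means were identical in both tables. Differences were computed from the group means with pandas 2.3.3 under Python 3.11.15 (numpy 2.4.6, matplotlib 3.10.9). Only the calls at 1.2-fold and their direction were tested on simulated data with known differences. No reported value rests on a test, and the number of arrays limits the precision.

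Probe sets were matched to members by symbol entries split at each semicolon. Of all probe sets, 5694 carried no symbol. The members and lists were chosen with earlier results of these data known. Named genes were all members and at most 4 of each other list by the largest difference in the strain or the STEE comparison. Alternatives were folds of 1.1 and 1.5, a signal filter, probe set classes, median centring, symbol rules and other gene summaries. RefSeq promoters (GRCm38.p6) matched all 9 members. One result is not reported here.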

Additional observations from a re-analysis of the deposited data

How the results depend on the processing

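The number of member probe sets counted as apart followed the fold that was asked for. In SAMP8 + Water against SAMR1 it was 5 at 1.2-fold, 9 at 1.1-fold and 0 at 1.5-fold, where 25.9% and 0.876% of all probe sets passed the latter 2. With STEE against SAMP8 + Water it was 3 at 1.2-fold, 11 at 1.1-fold and 0 at 1.5-fold, where 16.2% and 0.0799% of all passed. With STEE against SAMR1 it was 3, 13 and 0 in the same order, where 27.6% and 1.02% passed. The counts stayed within 1.5 times under a filter on signal (5, 2 and 3 of the 19 probe sets at or above the median). They did so too without the _x_at and _s_at classes (5, 3 and 2 of 23). The same held after median centring (4, 3 and 4) and with 1 symbol alone (5, 3 and 3). With STEE against SAMP8 + Water, the signal filter left 0 higher and 2 lower, so the Bcl2l1 probe set dropped out. The shares of all probe sets at 1.2-fold did not stay alike under the signal filter. They were 7.11%, 2.01% and 7.85% without it and 11.6%, 3.05% and 13.0% with it, in the same order of comparisons. Under the other alternatives just named they were 7.08% to 7.12%, 1.94% to 2.01% and 7.84% to 8.01%. For the 7 genes with several probe sets, 102 alternative values of the gene means were computed. Of these 31 equalled the value given, 64 others stayed within a limit set from the spread between the gene's probe sets, and 7 passed it. That limit was narrower than the full range over probe sets. The passing values of Bcl2 and Bid, 0.26 to 0.35, equalled single probe sets of those genes. Of the 102, 10, all of Bcl2, Bcl2l1, Bak1 or Bcl2l11, had the opposite sign. Bax and Bbc3 have 1 probe set each, so that only centring could move them, by at most 0.01. No paired analysis was possible because the tables hold group means only, and leaving out single replicates was not possible for the same reason. What stands behind each alternative's effect was not tested.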
